A study of Mus musculus with 6 samples.

Results

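The interferon-inducible GTPases are host defence proteins of the dynamin-like guanylate-binding protein (GBP) family and the immunity-related GTPase (IRG) family. The 10 genes described here were chosen by name from the deposited gene table of 23307 genes, with earlier results of these data known. They are 6 GBP genes (Gbp2, Gbp3, Gbp4, Gbp5, Gbp6 and Gbp7) and 4 IRG genes (Igtp, Iigp1, Irgm1 and Irgm2). Normalized read counts averaged 10 or more for all 10, so all 10 entered the test. Cells from the inguinal lymph nodes of SJL mice were profiled by RNA-seq at day 3 of experimental autoimmune encephalomyelitis (EAE), in which an immune response is raised against myelin. Perampanel, a blocker of AMPA-type glutamate receptors used against seizures, had been given therapeutically to 3 mice, and 3 others were controls. Both groups had EAE induced, and no mice without EAE are described in the labels. The labels used here do not state the dose, the schedule, what controls received, or the age and sex of the mice.

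Interferon-gamma binds the receptor chains Ifngr1 and Ifngr2, and the kinases Jak1 and Jak2 pass the signal on. Interferon-induced genes carry promoter elements named the gamma-activated sequence (GAS) and the interferon-stimulated response element (ISRE), and Irf1 binds the ISRE. GBPs and effector IRGs such as Iigp1 gather on vacuoles that hold intracellular pathogens and help to break them. Igtp (Irgm3), Irgm1 and Irgm2 are regulatory IRGs, which sit on host membranes and hold the effectors inactive there. In mice Irgm1 also protects CD4 T cells from death driven by interferon-gamma.

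Promoter sequence is shown first, because the family is defined by its response to interferon. RefSeq promoter windows (GRCm38.p6, 250 bases before to 50 after the start) were found for 7 of the 10 genes, and Gbp4, Gbp6 and Iigp1 had no entry. Each window was searched on both strands for the GAS letters TTCNNNGAA and for an ISRE core of GAAA, any 2 bases and GAAA again. Counting a gene by any of its windows, all 7 held an ISRE core, against 3.99% of 27025 genes with a promoter window. A further window of Gbp3 (chr3:142560106-142560405) held neither motif. A GAS match was present in 4 of the 7, Gbp5, Gbp7, Igtp and Irgm2, against 9.55% of those genes. These are matches of letters and were not tested for binding. The 5 windows below show an ISRE core alone (Gbp2), overlapping cores (Irgm1), both motifs (Gbp7), and the like pair Igtp and Irgm2, with matches in capitals. Gbp2 (chr3:142620413-142620712, plus strand) holds an ISRE core that begins at position -59 from the start. Gbp7 (chr3:142530086-142530385, plus strand) holds GAS matches at -106 and -87 and an ISRE core at -53. Irgm1 (chr11:48871371-48871670, minus strand) holds a pair of overlapping ISRE cores at -30 and -24. Igtp (chr11:58199306-58199605, plus strand) has a GAS match at -45 and an ISRE core at -34, and Irgm2 (chr11:58214727-58215026, plus strand) has them at -75 and -64. No GAS match overlapped an ISRE core in these windows.
Gbp2: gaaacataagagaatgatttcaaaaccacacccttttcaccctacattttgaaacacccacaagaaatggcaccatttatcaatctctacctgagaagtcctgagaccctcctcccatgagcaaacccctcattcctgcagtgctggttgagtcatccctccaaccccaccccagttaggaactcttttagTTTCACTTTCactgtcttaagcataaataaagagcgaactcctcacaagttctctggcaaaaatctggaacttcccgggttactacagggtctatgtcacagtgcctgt
Gbp7: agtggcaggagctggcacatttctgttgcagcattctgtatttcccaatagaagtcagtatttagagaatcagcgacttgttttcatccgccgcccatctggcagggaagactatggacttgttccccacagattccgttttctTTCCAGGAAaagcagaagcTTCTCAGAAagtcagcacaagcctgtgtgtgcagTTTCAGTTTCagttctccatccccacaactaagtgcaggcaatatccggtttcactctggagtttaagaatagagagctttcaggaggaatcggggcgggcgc
Irgm1: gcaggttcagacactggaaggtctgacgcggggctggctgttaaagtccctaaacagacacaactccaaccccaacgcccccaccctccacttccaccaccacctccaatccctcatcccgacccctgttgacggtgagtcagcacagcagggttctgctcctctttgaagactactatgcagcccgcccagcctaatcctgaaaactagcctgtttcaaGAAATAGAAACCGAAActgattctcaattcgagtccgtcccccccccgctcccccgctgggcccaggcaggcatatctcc
Igtp: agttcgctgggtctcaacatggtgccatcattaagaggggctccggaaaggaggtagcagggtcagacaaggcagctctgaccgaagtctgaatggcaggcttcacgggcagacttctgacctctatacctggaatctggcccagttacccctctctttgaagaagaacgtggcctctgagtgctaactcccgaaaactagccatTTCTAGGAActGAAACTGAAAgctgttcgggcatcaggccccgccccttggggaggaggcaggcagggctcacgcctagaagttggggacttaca
Irgm2: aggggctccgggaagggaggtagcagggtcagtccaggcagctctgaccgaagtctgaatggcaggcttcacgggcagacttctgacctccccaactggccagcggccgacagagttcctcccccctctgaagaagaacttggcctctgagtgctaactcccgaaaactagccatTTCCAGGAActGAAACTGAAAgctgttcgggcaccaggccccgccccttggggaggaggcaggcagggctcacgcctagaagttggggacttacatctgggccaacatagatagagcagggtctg

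The Igtp and Irgm2 windows were alike over most of their length. A local alignment held 244 identical bases in 270 columns (90.4%), with an unbroken identical run of 61 bases. The next closest pair over the whole window was Gbp3 and Gbp7, at 50.6% identity against 72.8% for Igtp and Irgm2. Among further GTPases outside chromosome 18, 9 had a window, and Tgtp1, Tgtp2, Gm12185 and Gm12250 had both kinds of match. Neither kind was found for 9930111J21Rik2, Gm5431 or Irgq.

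Reads assigned to genes numbered 1779724 to 2003726 in perampanel libraries and 2036072 to 2208589 in control libraries, so every perampanel library was the shallower. The 10 genes took 773, 1253 and 926 CPM in perampanel 1 to 3, against 729, 854 and 773 in controls 1 to 3. They had 10761 reads in all, from 170 for Gbp3 to 2196 for Gbp7. The labels call the cells lymphocytes, and 9 T cell markers summed to 13788 to 14602 normalized read counts in perampanel libraries and 13016 to 14014 in controls. Only 4 of these 9 had a positive fold change, with a median log2 of -0.00549 over the 9. Trac, the T cell receptor alpha constant gene, was called higher (log2 0.16, limma adjusted p = 0.0304, named after its values were seen). It was not called without control 1 (0.313), control 2 (0.142), perampanel 1 (0.0596) or perampanel 3 (0.0675). The Trac call was also lost with the replicate number as a block (limma adjusted p = 0.0686) and with quantile normalization (0.0733). The 5 tested B cell markers had a median log2 fold change of -0.42, with 1 positive and none called. Mitochondrial genes took 10.34% to 10.77% of reads in perampanel libraries and 9.84% to 10.30% in controls, higher in every perampanel library. The 8 macrophage and monocyte markers, of cells in which these GTPases are well studied, summed to 26.5 to 41.2 normalized read counts in perampanel libraries and 18.3 to 30.3 in controls, and Adgre1, Cd14, Mertk and Marco had no read in any library. The macrophage sum was 28.2 in perampanel 2, the library highest for most members. The 8 dendritic cell markers summed to 37.3 to 54.9 in perampanel libraries, lowest in perampanel 2, and to 49.6 to 151 in controls, with Clec9a at 0 throughout. The part of cell makeup and of the mitochondrial share in the results was not tested. In bulk RNA, more cells of a type and more RNA per cell cannot be told apart.

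Levels of the 10 genes differed widely when set per kilobase of annotated exon (normalized read counts per kb, mean ± SD over the 6 libraries). Igtp was highest at 143 ± 26.7, followed by Gbp2 at 109 ± 36.1, Gbp7 at 64.9 ± 12.5 and Gbp4 at 37.5 ± 7.73. Irgm2 (28.03 ± 6.08), Irgm1 (27.3 ± 5.13) and Iigp1 (25.3 ± 10.8) lay close together. Gbp6 (12.5 ± 2.62), Gbp5 (10.1 ± 3.22) and Gbp3 (8.61 ± 1.18) were lowest. Ranges over libraries overlapped between neighbours in this order, except that Gbp6 (at most 15.9) lay wholly below Iigp1 (at least 18.0). Compared within each of the 6 libraries, the order Igtp, Gbp2, Gbp7, Gbp4, Irgm2 always held. Iigp1 was likewise above Gbp6, and Gbp6 above Gbp5, in each library. Counts of Gbp6 are uncertain, because 70.7% of the 50-base words in its transcripts also occur in transcripts of other genes, chiefly Gm43302 (65.0%) and Gbp10 (45.9%). Between 0.310% (Irgm1) and 12.7% (Gbp7) of words were shared for the other 9. Igtp and Irgm2 overlap on the same strand and share 162 exonic bases.

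Under perampanel 9 of the 10 GTPase genes had a higher mean than in controls, but none passed the test over all genes. Their median log2 fold change of 0.26 was 0.11 without perampanel 2 and 0.18 without control 1. The largest fold changes were those of Iigp1 (log2 0.54) and Gbp2 (log2 0.53), and Gbp3 alone was lower (log2 -0.17). A positive fold change was shared by 50.3% of all genes tested. By limma 0 of 10 passed at an adjusted p under 0.05, against 1.10% of 9076 genes tested (0.419% higher and 0.683% lower). At an unadjusted p under 0.05, 6 of the 10 were higher and none lower, and 4.36% of all genes tested were higher. The edgeR quasi-likelihood test on recovered reads called 1 of 10, Gbp2 (adjusted p = 0.0305), where it called 1.19% of all genes, and limma-voom called 0. DESeq2 called none of the 6 to which it gave an adjusted p, against 1.66% of genes. The authors' deposited table gives 6 of the 10 an adjusted p, none under 0.05, and 3 have a p under 0.05, with Gbp2 at a log2 fold change of 0.57 (adjusted p = 0.631). The median log2 fold change was 0.26 over the 10 genes, 0.17 over the 6 GBPs, 0.36 over the 4 IRGs and 0.00144 over all genes tested.

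**Figure D1:**
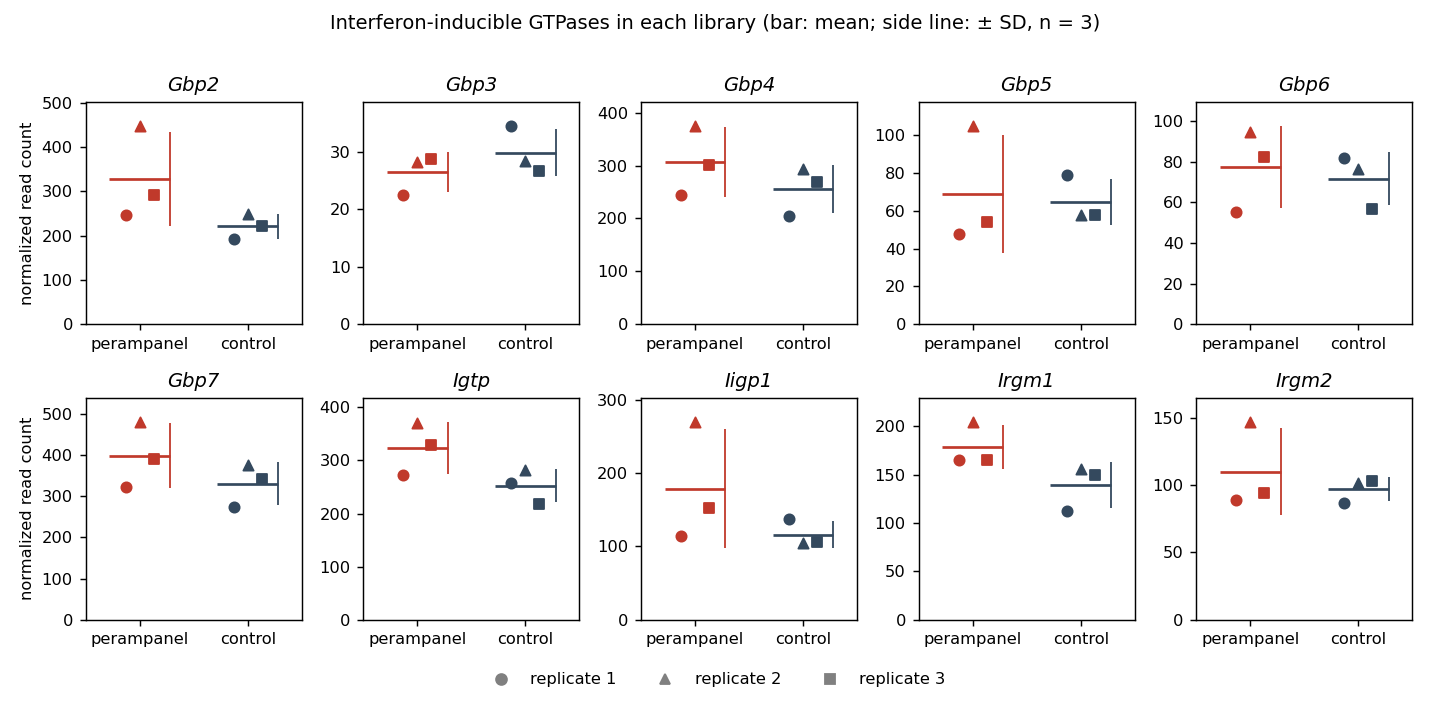
Normalized read counts (vertical axis, from 0) of each of the 10 GTPase genes in 3 perampanel and 3 control libraries; symbols give the replicate number, horizontal bars the mean and side lines ± SD. Perampanel 2, the red triangle, is the highest library for 9 of the 10 genes, and the groups are separate only for Irgm1.

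Gbp2, which in mice helps to disrupt the vacuole of Toxoplasma, came closest to the limma threshold with all libraries. It was at 246, 448 and 292 normalized read counts in perampanel 1 to 3 and at 193, 248 and 222 in controls 1 to 3. Perampanel 2 stood highest, and perampanel 1 lay just below the highest control. The means were 328 ± 106 under perampanel and 221 ± 27.8 in controls (SD, n = 3 each). The log2 fold change was 0.53 ± 0.14 (SE, limma adjusted p = 0.0581, 95% interval 0.25 to 0.81), and without perampanel 2 it was 0.28 (adjusted p = 0.451). The SE and interval rest on limma's moderated variance, which borrows from all genes tested. With a robust variance prior the limma adjusted p of Gbp2 was 0.636. Gbp2 passed without perampanel 1 (log2 0.71, limma adjusted p = 0.00260) and without perampanel 3 (log2 0.59, limma adjusted p = 0.0349).

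Iigp1 (Irga6, chromosome 18, 60376027 to 60392634, GRCm38) is an effector that coats pathogen vacuoles. In perampanel 2 it was at 2.03 times the mean of the other perampanel libraries, where Gbp5 was at 2.06 and Gbp2 at 1.67 times. Its values were 114, 270 and 152 under perampanel and 138, 105 and 106 in controls. Perampanel 1 lay inside the control range, and perampanel 2 was at 2.33 times the control mean. The log2 fold change was 0.54 ± 0.19 (SE, limma adjusted p = 0.248), and without perampanel 2 it was 0.19 (adjusted p = 0.806). Without perampanel 1 it passed, at log2 0.81 (limma adjusted p = 0.00803). With all libraries and a robust variance prior the limma adjusted p of Iigp1 was 0.742.

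The regulatory IRGs differed among themselves in how the libraries fell. Irgm1 was at 165, 205 and 165 normalized read counts under perampanel and at 112, 156 and 150 in controls. It was the only one of the 10 with every perampanel library above every control, a pattern shown by 7.18% of all genes tested, and none of the 10 had every perampanel library below every control (6.90% of genes). Its log2 fold change was 0.36 ± 0.13 (SE, limma adjusted p = 0.266) and was 0.26 without perampanel 2 and 0.21 without control 1 (adjusted p = 0.779). Igtp was at 273, 371 and 329 under perampanel and at 258, 281 and 219 in controls, so that perampanel 1 lay below control 2 alone. Its log2 fold change was 0.36 ± 0.11 (SE, limma adjusted p = 0.118), 0.25 without perampanel 2, and 0.47 without perampanel 1, where it passed (limma adjusted p = 0.0197). Irgm2, the neighbour of Igtp with the like promoter, was at 88.7, 147 and 93.9 under perampanel and at 86.6, 101 and 103 in controls. Here perampanel 2 alone lay above the controls. The log2 fold change of Irgm2 was 0.15 (95% interval -0.18 to 0.47, limma adjusted p = 0.836) with all libraries and -0.08 without perampanel 2.

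The other abundant GBPs had smaller differences than Gbp2. Gbp7, which in mouse macrophages aids assembly of the oxidase on vacuoles, was at 323, 481 and 389 under perampanel and at 275, 375 and 342 in controls. Gbp4 was at 244, 375 and 301 under perampanel and at 205, 293 and 268 in controls. Both genes were in the same order over all 6 libraries, lowest in control 1 and highest in perampanel 2. Their log2 fold changes were each 0.26 (limma adjusted p = 0.445 for Gbp7 and 0.535 for Gbp4), 0.11 and 0.10 without perampanel 2, and 0.13 and 0.11 without control 1.

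Low-level GBPs did not share the pattern of Gbp2 in full. Gbp5, linked to inflammasome activation in macrophages, was at 47.9, 105 and 53.8 under perampanel and at 78.7, 57.5 and 57.9 in controls. Perampanel 1 and 3 lay below all controls and perampanel 2 above them. The log2 fold change was 0.02 (95% interval -0.42 to 0.45), and -0.33 without perampanel 2. Gbp6, which aids killing of bacteria in mouse macrophages, was at 55.1, 94.8 and 82.4 under perampanel and at 81.7, 76.7 and 56.9 in controls, with a log2 fold change of 0.09 (-0.28 to 0.46). Gbp3 was at 22.4, 28.2 and 28.6 under perampanel and at 34.4, 28.3 and 26.6 in controls, and it was the only member not highest in perampanel 2.

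**Figure D2:**
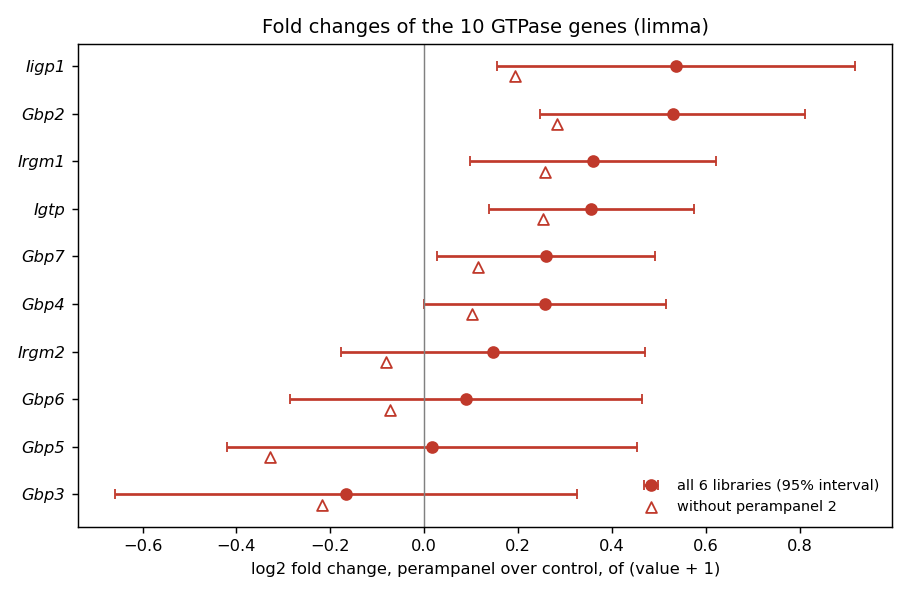
Log2 fold change of perampanel over control (horizontal axis) for each GTPase gene, with 95% intervals from limma as filled circles; open triangles are the fold changes without perampanel 2. Perampanel 2 lay above the perampanel mean of every gene, so leaving it out had to lower all 10 values. Gbp2 went from 0.53 to 0.28 on the log2 scale, and Gbp5, Gbp6 and Irgm2 went below 0.

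The SD between mice was larger under perampanel than in controls for 8 of the 10 genes, a difference that was not tested. The SD between perampanel libraries was 3.33 times the SD that counting alone would give (median over 10 genes), and between controls 1.86 times. These ratios ran from 0.655 for Gbp3 to 5.92 for Iigp1 under perampanel and from 0.778 for Gbp3 to 2.95 for Gbp4 in controls. So only Gbp3, the gene with the fewest reads, varied no more than counting error in both groups. Perampanel 2 was the highest library for 9 of 10 members, against 17.7% of all genes tested. Averaged over the 10 genes, the level relative to each gene's mean over libraries was -0.20, 0.50 and 0.06 (log2) in perampanel 1 to 3 and -0.14, -0.04 and -0.18 in controls 1 to 3. Perampanel 1 was thus below every control, and perampanel 2 and 3 were above every control. Without perampanel 2 the median log2 fold change of the 10 genes was 0.11, 6 were positive, and limma called none. A fall was bound to follow, because perampanel 2 lay above the perampanel mean of every member.

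**Figure D3:**
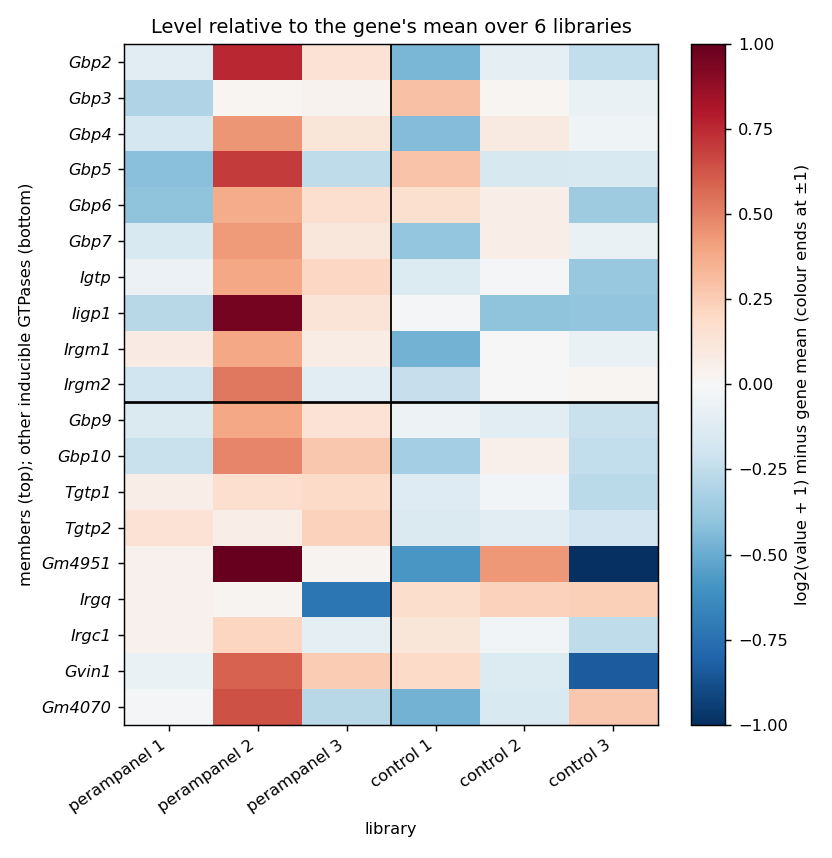
Level of each gene in each library relative to its own mean over the 6 libraries (colour, log2 scale ending at ±1), for the 10 members above the line and 9 other tested GTPases below it. The perampanel 2 column is the reddest for 9 members and for 6 of the 9 others, where 17.7% of all genes tested are highest. Tgtp1 and Tgtp2 are highest in perampanel 3.

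Other GTPases of these and related families gave a mixed picture, and not all of them need be induced by interferon. Of a list of 21 further genes, 9 were tested, 6 averaged under 10 normalized read counts and 6 were not analysed here. None of the 9 passed by limma, where 1.10% of all genes tested did, and their median log2 fold change was 0.29. At an unadjusted p under 0.05, 4 were higher and none lower, and 4.36% of all genes tested were higher. Tgtp1 and Tgtp2 (Irgb6), effector IRGs of near-identical sequence whose reads may be split, were higher in every perampanel library than in every control. Of all genes tested 7.18% had this order. Tgtp1 was at 170, 184 and 187 under perampanel and at 149, 160 and 135 in controls (log2 0.29, limma adjusted p = 0.333). Tgtp2 was at 91.8, 86.7 and 97.3 against 74.8, 76.7 and 72.6 in controls (log2 0.29, limma adjusted p = 0.523). Neither rested on perampanel 2, without which their log2 fold changes were 0.27 and 0.34. Gbp9, at 230.5, 335 and 282 under perampanel and 247, 236 and 219 in controls, followed the members more closely (log2 0.26, limma adjusted p = 0.429). Gm4951 had 8.16, 42.4 and 8.01 under perampanel and 4.92, 10.96 and 0.918 in controls, a log2 fold change of 1.57 that rested on 75 reads in all (0.82 without perampanel 2). The very large GTPases Gvin1 (log2 0.52) and Gm4070 (0.24), and Gbp10 (0.36) and Irgc1 (0.11), also peaked in perampanel 2, and Irgq was at -0.43.

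Ligand and signalling genes of the interferon-gamma pathway were higher in part. Ifng itself had no read in any library (0 of 5781938 perampanel and 0 of 6427085 control reads), which allows up to 1.36 to 1.69 CPM, depending on the library (3 reads). Ifngr1, the ligand-binding chain, rose to 269, 383 and 246 normalized read counts under perampanel, against 171, 169 and 224 in controls (log2 0.65 ± 0.13, SE, limma adjusted p = 0.00543). Perampanel 2 was the highest library here too, and without it the log2 fold change was 0.46 and did not pass (limma adjusted p = 0.0865). The call was also lost without control 2 (log2 0.58, limma adjusted p = 0.0785) and with a robust variance prior (adjusted p = 0.155). Ifngr1 was the 1 called gene of 17 tested, against 0.419% of all genes called as higher, and 12 of the 17 had a positive fold change with a median of 0.14. Socs1, the feedback inhibitor of the pathway, was at 98.9, 111 and 103 under perampanel and at 78.7, 84.9 and 70.7 in controls (log2 0.41, limma adjusted p = 0.211). Every perampanel library of Socs1 was above every control, an order shown by 7.18% of all genes tested. The log2 fold changes of Ifngr2 (0.20), Jak1 (0.14), Jak2 (0.19) and Irf1 (0.08) did not pass.

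Targets of interferon-gamma outside the GTPases peaked in perampanel 2, and type I interferon targets in perampanel 3. None of 19 other tested interferon-gamma targets passed by limma, 5 were higher and none lower at an unadjusted p under 0.05, and 14 of 19 were highest in perampanel 2 (4.36% and 17.7% of all genes tested). Their fold changes were small, with a median of 0.11. Cd274, the checkpoint ligand PD-L1, was at 51.0, 58.5 and 52.7 under perampanel and at 34.4, 40.2 and 40.4 in controls (log2 0.49, limma adjusted p = 0.331). H2.K1, a classical MHC class I chain, had a log2 fold change of 0.12 (limma adjusted p = 0.156) and H2.D1 of 0.09, and the class II activator Ciita averaged 3.13 and 5.04 and was not tested. Of 26 tested type I targets none passed, 9 were higher and none lower at an unadjusted p under 0.05, and 3 were highest in perampanel 2, a share not above that of all genes. Their mean relative level was -0.21, 0.09 and 0.41 in perampanel 1 to 3 and 0.00235, -0.11 and -0.19 in controls 1 to 3. Ifit1, an antiviral RNA-binding protein, had 32.6, 28.2 and 72.1 under perampanel and 32.5, 24.7 and 15.6 in controls (log2 0.78, limma adjusted p = 0.322). Ifi47 (Irgd), an IRG counted with these targets, was at 560, 625 and 655 under perampanel and at 494, 563 and 481 in controls (log2 0.26, limma adjusted p = 0.112). Of 7 tested genes of type I ligands, receptors and signalling none passed by limma and 1 had an unadjusted p under 0.05, with a median of 0.02 and Irf3 at 0.23. Trim30a, a type I target of the TRIM family, was at 278, 276 and 321 under perampanel and at 213, 238 and 235 in controls (log2 0.35, limma adjusted p = 0.0700).

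**Figure D4:**
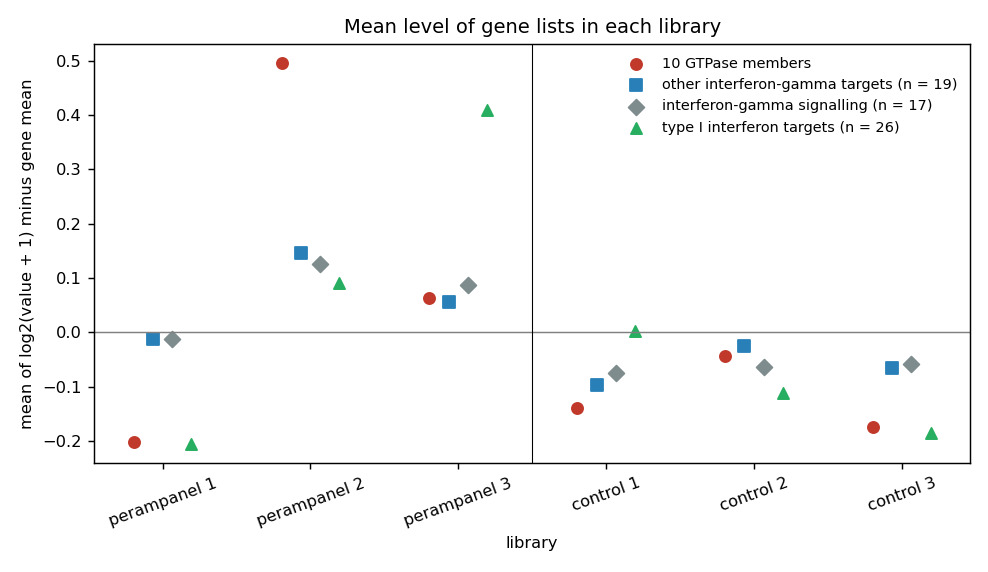
Mean level of 4 gene lists in each library (log2 scale, relative to each gene's mean over the 6 libraries). The 10 GTPase members peak in perampanel 2 at 0.50, and the type I interferon targets peak in perampanel 3 at 0.41, with perampanel 1 at -0.20 for the members and -0.21 for the type I targets.

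The 5 genes closest to the mean pattern of the members over the 6 libraries, of 5515 genes that are no member and average at least 50 normalized read counts, were Ankrd16, Rab3ip, Casp1, Hps3 and Gbp9. Likeness was the root mean square distance of log2 values centred on each gene's mean, which was 0.0580 for Ankrd16 and 0.0774 for Gbp9. Each member lay further than this from the mean of the other members, from 0.128 for Irgm2 to 0.302 for Gbp3. Closeness to the mean pattern therefore does not mark these 5 genes as like the members. Casp1, the inflammasome protease, was at 46.9, 82.7 and 53.8 under perampanel and at 49.2, 51.1 and 45.0 in controls. None of the 5 passed by limma. The 6 points share their libraries and depth, and no p-value was attached to this order.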

How the data were processed

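Libraries came from poly(A) RNA of meshed lymph nodes (3 mice given perampanel, 3 controls), per the labels' protocols, with a kit that does not mark strand. The authors deposited 1 table holding size-factor-normalized signal per sample, log2 fold changes, a Wald score and p-values. The submitters' processing notes list DESeq2, DESeq and GRCm38, without versions. The aligner, counting tool and read length were not stated. In each of 19321 genes the authors' Wald score carries the reverse sign of their fold change, and for the 10 members the sample columns follow the fold. Members and lists were chosen with earlier results of these data known. Deposited signal values were whole multiples of 1 read (100% within 1e-06), and recovered reads served for depth and count tests. Floors of 3 reads cover counting error only.

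The main test was limma-trend (version 3.58.1 under R 4.3.3) of log2(value + 1) on treatment, over 9076 genes averaging 10 or more, adjusted by Benjamini-Hochberg and called under 0.05. Such fold changes understate differences of low genes. Replicate libraries differed beyond sampling noise (chi-square over degrees of freedom 1.56 to 1.80), so all 6 were kept. Positions and exon lengths came from GENCODE mouse release 21 (GRCm38), and promoters from RefSeq (GRCm38.p6). Named genes were the 10 members, 9 pathway genes fixed by name (1 is not reported here), up to 3 of smallest p per list, all tested further GTPases and the 5 nearest in pattern. Alternatives included edgeR 4.0.16 (108 genes called) and DESeq2 1.42.0 on recovered reads.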

Additional observations from a re-analysis of the deposited data

How the results depend on the processing

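Of 179 fold changes of members over 18 alternatives, 173 kept their direction, but not all of them could reverse. The filters on the mean, the replicate block and the robust variance prior leave each fold change as it is. The 6 that reversed all left out a library. Gbp5 was at -0.06 without control 2 or control 3, and between -0.33 (without perampanel 2) and 0.23 over libraries left out. Gbp6 was at -0.067 without control 3, and between -0.073 (without perampanel 2) and 0.31. Irgm2 was between -0.082 (without perampanel 2) and 0.28. Calls among the members, 0 in the report, numbered 3 with no filter beyond a mean above 0 (Gbp2, Igtp and Iigp1), and 1 (Gbp2) with pseudocount 10, with a filter at 50 and by edgeR, and 0 to 3 when 1 library was left out. No member was called with quantile normalization (Gbp2 at limma adjusted p = 0.150), with a robust variance prior (Gbp2 at 0.636) or by DESeq2 (Gbp2 at adjusted p = 0.631). The median log2 fold change over the members was 0.11 without perampanel 2, 0.18 without control 1 and 0.41 without perampanel 1, against 0.26 with all libraries. Genes called in all numbered 100, 179 without the filter, 50 by DESeq2, and 43 (without control 1) to 116 (without perampanel 1) when 1 library was left out. Calls in the lists other than cell type markers, 2 in the report (Ifngr1 and Lgals3), numbered 1 with pseudocount 0.1, a filter at 50, quantile normalization, a robust prior, DESeq2 or thinning, 5 without the filter, and 0 to 4 with 1 library left out. With the replicate number as a block, 103 genes and 1 member, Gbp2 (adjusted p = 0.00936), were called. Same-numbered samples deviated together weakly (correlations 0.0332, 0.0332 and 0.0155), though each correlated best with its own number. The labels do not say what the number marks, so the libraries were treated as unpaired. Weak correlations cannot settle whether same-numbered samples share anything more. The cause of these changes was not tested. Gbp3, with 170 reads, varied no more than counting error in either group.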

Other observations

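Partner machinery of the GTPases, taken from 3 gene lists, held 1 called gene, Lgals3. Of 13 tested genes of ATG8 conjugation, which places regulatory and effector IRGs on membranes, none passed by limma, and the median log2 fold change was 0.02. At an unadjusted p under 0.05, 2 were higher, and 4.36% of all genes tested were higher. Atg16l1, a scaffold of the conjugation complex, was at 44.9, 43.4 and 54.9 normalized read counts under perampanel and at 36.4, 32.9 and 36.7 in controls (log2 0.42, limma adjusted p = 0.516). Of 8 tested ubiquitin and inflammasome partners none passed and none had an unadjusted p under 0.05, with Rnf213 at 0.19, Trim21 at 0.19 and Gsdmd at 0.14. Of 11 tested genes of isoprenylation and galectins, 1 fell, Lgals3, a galectin that binds glycans of damaged vacuoles. Lgals3 had 3.06, 6.05 and 1.14 normalized read counts under perampanel and 15.7, 32.9 and 9.18 in controls (log2 -2.19 ± 0.54, SE, limma adjusted p = 0.0419), from 72 reads in all, where 0.683% of all genes tested were called lower. The call was lost without control 1 (limma adjusted p = 0.168), control 2 (0.407) or perampanel 3 (0.0813). It was also lost with pseudocount 0.1 (limma adjusted p = 0.0566), quantile normalization (0.130) and thinning to the smallest library (0.0790). DESeq2 gave Lgals3 no adjusted p, and the call held by edgeR, by limma-voom and with a robust variance prior. Among 7 tested genes of interferon-gamma sources none passed and none had an unadjusted p under 0.05, and the chemokine Xcl1 (log2 -1.48, limma adjusted p = 0.628) averaged 6.35 ± 8.39 under perampanel and 38.2 ± 59.8 in controls (SD, n = 3 each).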
